A study of Sus scrofa with 10 samples.

Results

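Collagen chain genes encode the polypeptides that fold, 3 at a time, into the triple helices of the collagens. They were taken here as every gene whose symbol is COL, a type number, A and a chain number, and 40 of the 35670 genes listed in each library matched. Of these, 11 belonged to the fibrillar collagens, 6 to the type IV collagens of basement membranes and 23 to other classes. They were measured by RNA sequencing of nuclear RNA from cardiomyocytes sorted from the hearts of wild-type minipigs (Sus scrofa). All library labels, controls included, begin with AF, which the labels do not spell out. The control group, libraries 1 to 5, had received PBS. The DOCA group, libraries 6 and 7, had received deoxycorticosterone acetate, a mineralocorticoid used to raise blood pressure in animal models. Libraries 8 to 10 came from the group given DOCA with JK07, a neuregulin fusion antibody that acts on ErbB receptors. The sources used here give no dose, duration, chamber or animal age, and nothing in the labels ties a library to a separate animal. The p-values therefore measure the spread between these libraries, which may be technical.

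Fibrillar collagens, chiefly types I, III and V in the heart, are secreted as procollagens, trimmed and cross-linked into the fibres of the interstitium, and are made mainly by fibroblasts. Type IV collagen forms the sheet-like network of the basement membrane that surrounds each cardiomyocyte and each vessel, with laminins, nidogens and perlecan. Other collagens decorate fibrils, form beaded filaments or span the cell membrane, and types XV and XVIII sit in the basement membrane zone although they are not type IV chains.

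The libraries held 28.1 to 106 M (mega) estimated counts, of which 77.6% to 90.8% fell on unplaced scaffolds that carry ribosomal RNA. The DOCA libraries stood apart from the other 8. Counts outside those scaffolds and outside mitochondrial genes came to 6.87 and 3.30 M in libraries 6 and 7, against 8.67 to 13.9 M elsewhere. Of the genes counted there, 11522 and 10622 were above 0, against 14905 to 17014. Mitochondrial genes took 2.58% and 0.488% of all counts outside the ribosomal scaffolds, against 3.69% to 8.26%. Library 7 also had the highest summed level of mesothelial markers (UPK3B, WT1 and KRT19), 116 CPM (counts scaled to library size after TMM normalization), against 1.51 to 26.0 CPM in the other 9 libraries. All 8 of the listed cardiomyocyte markers found in the files were above 0 in every library, and their sum was 3165 to 7721 CPM. Markers of other heart cells were present too: 11 to 13 of 13 fibroblast markers were above 0 in each library, and 8 to 10 of 10 endothelial markers. In such bulk samples fewer cells of a type and less RNA per cell cannot be told apart.

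A narrow set of chains made up most of the collagen RNA. Among the 40 genes, 20 were above 0 in all 10 libraries, 9 in some libraries and 11 in none. The 11 listed at 0 throughout included the cartilage chains COL2A1, COL9A1, COL9A3, COL11A1 and COL11A2 and the type IV chains COL4A3 and COL4A4, which are known from the kidney glomerulus. On the deposited TPM scale, which is per transcript length and so allows genes to be compared, the 10 most abundant chains held 89.1% of the mean collagen sum. COL3A1, the chain of type III collagen, led with 25.4%, followed by COL1A1 with 15.5%, COL4A1 with 8.46% and COL1A2 with 8.27%. In the controls COL3A1 averaged 145 ± 96.8 TPM (SD, n = 5) and ranked 46 among 23967 named genes. COL1A1 ranked 62, COL1A2 91, COL4A1 103 and COL15A1, a multiplexin of the basement membrane zone, 106. Interstitial collagen chains were therefore among the more abundant named genes in the control group of these sorted samples.

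The share of each class varied between libraries of the same group. Fibrillar chains held 46.8% to 67.0% of the summed collagen TPM in the controls and 49.7% to 59.8% in the group given DOCA with JK07. The 2 DOCA libraries lay on opposite sides of the latter range, with 38.8% in library 6 and 63.8% in library 7. Type IV chains took 39.1% in library 6, the highest share of any library, and 11.9% in library 7, against 7.92% to 16.6% in the other 8. On the TPM scale the share in library 6 was high over a low total. Its summed collagen level was 267 TPM, the lowest of the 10, whereas library 7 had 999.5 TPM and control library 5 had 1049 TPM. In CPM library 6 had fibrillar and other sums of 781 and 414, inside control ranges of 638 to 2501 and 297.5 to 908. Its type IV sum in CPM was 525, the highest of the 10. Summed type IV level itself was 104 and 119 TPM in the DOCA libraries and 50.5 to 88.9 TPM in the others, so the groups did not overlap in this sum.

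**Figure D1:**
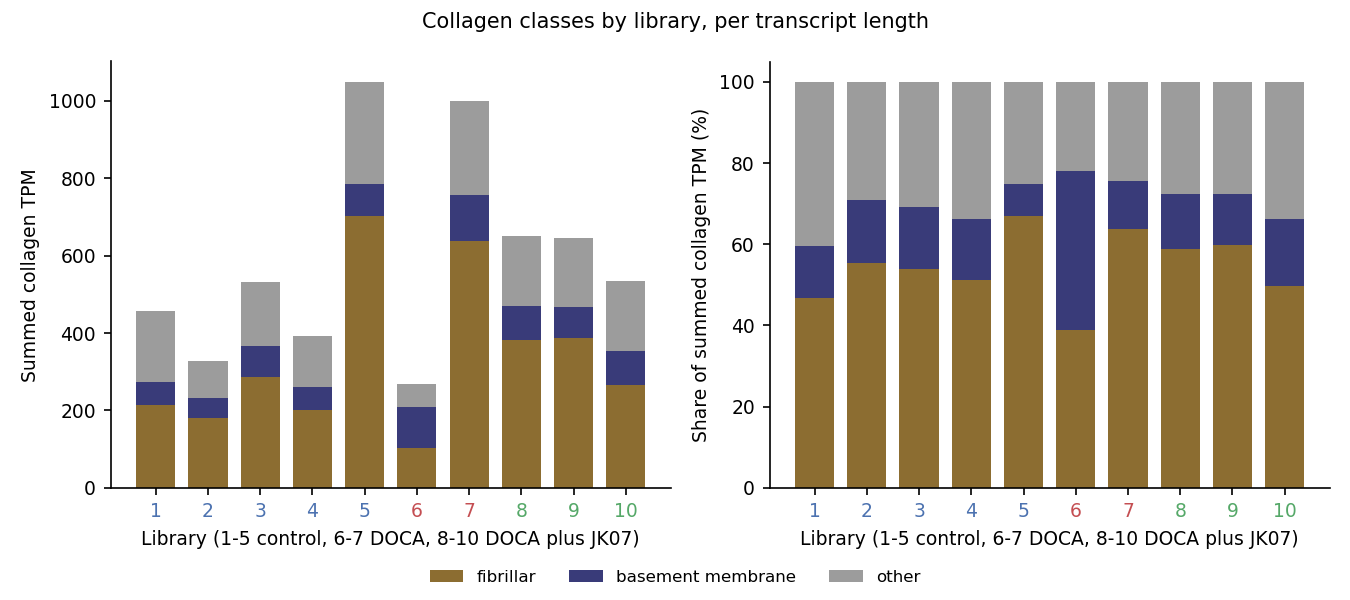
Summed TPM of the 3 collagen classes (left, stacked bars) and each class as a percentage of the collagen sum (right) in each of the 10 libraries. Library 6 combines the lowest sum, 267 TPM, with the largest type IV share, 39.1%, while library 7 reaches 999.5 TPM with a type IV share of 11.9%.

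The first comparison asked how the collagen chains of the DOCA group differed from those of the PBS controls. After filtering of low counts, 27 chains could be tested with edgeR's quasi-likelihood test, with Benjamini-Hochberg adjustment over all 17251 genes tested and a threshold of 0.05. COL4A1 and COL4A2 (type IV), COL18A1 (type XVIII) and COL27A1 (type XXVII) rose, and COL10A1 (type X) fell. By class, 1 of 8 fibrillar chains rose, 2 of 4 type IV chains rose, and of 15 other chains 1 rose and 1 fell. Over all genes tested, 5.73% were called higher and 19.7% lower in DOCA. The median log2 fold change was 1.36 over the type IV chains, 0.63 over the fibrillar chains and -0.06 over the others (0.18 with groups at 0 set to the coverage minimum), beside -0.63 over all genes tested.

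COL4A1 and COL4A2 encode the α1 and α2 chains, which together form the most widespread type IV trimer. COL4A1 (chromosome 11, 76858356 to 76997322, minus strand, Sscrofa11.1) was measured at 86.6, 69.5, 139, 92.4 and 122 CPM in control libraries 1 to 5, and at 313 and 188 CPM in DOCA libraries 6 and 7. With JK07 it was at 116, 136 and 83.05 CPM. Both DOCA libraries therefore lay above all the others, and the JK07 libraries fell within the control range. The means were 102 ± 28.2 CPM in control (SD, n = 5) and 250 ± 88.4 CPM in DOCA (SD, n = 2), a log2 fold change of 1.29 (SE 0.31, edgeR adjusted p = 0.0155).

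COL4A2 (chromosome 11, 76997516 to 77161614, plus strand) showed the same order of groups. Its control values were 52.6, 41.7, 72.7, 53.2 and 73.1 CPM, its DOCA values 195 and 121 CPM, and its values with JK07 65.6, 89.1 and 57.3 CPM. Again no DOCA library overlapped the other groups. The mean was 58.7 ± 13.8 CPM in control (SD, n = 5) and 158 ± 52.7 CPM in DOCA (SD, n = 2), with a log2 fold change of 1.43 (SE 0.28, edgeR adjusted p = 0.00526). Neither call was kept without library 6. In that fit the log2 fold change of COL4A1 was 0.88 (edgeR adjusted p = 0.128) and that of COL4A2 was 1.04 (adjusted p = 0.0507), and without library 7 they were 1.61 and 1.73.

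The deposited TPM values of the pair, which depend on the authors' own scaling, also put both DOCA libraries above the rest. COL4A1 was at 65.1 and 70.2 TPM in DOCA and at no more than 56.0 TPM elsewhere, and COL4A2 was at 37.4 and 41.5 TPM against at most 31.4 TPM. The margin was smaller on that scale than in CPM.

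The other type IV chains that were detected, COL4A5 and COL4A6, did not pass the test. COL4A5 encodes the α5 chain and was at 7.84, 15.4, 10.5, 15.0 and 14.8 CPM in control, 13.9 and 21.7 CPM in DOCA and 12.96, 17.4 and 16.4 CPM with JK07, so that the groups overlapped. Its log2 fold change in DOCA was 0.49 (SE 0.29, edgeR adjusted p = 0.264). COL4A6, the α6 chain, reached 12.3 CPM in library 7 and was between 0 and 5.91 CPM in the other 9. All 4 tested type IV chains had a positive fold change in DOCA with each count-based scaling, and 3 of 4 did on the log2(TPM + 1) scale.

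COL18A1 encodes the core protein of type XVIII collagen, a basement membrane proteoglycan whose C-terminal fragment is endostatin (chromosome 13, 207940948 to 207982938). It was the collagen with the smallest adjusted p. The control libraries had 17.2, 23.0, 20.01, 19.5 and 20.1 CPM, the DOCA libraries 55.1 and 38.9 CPM, and the JK07 libraries 20.4, 23.6 and 33.6 CPM. The DOCA values lay above all others, while the highest JK07 value, in library 10, came close to the lower DOCA value. COL18A1 had a log2 fold change of 1.24 in DOCA (SE 0.22, edgeR adjusted p = 0.00270), which passed the threshold when library 6 was left out (0.96, adjusted p = 0.0249) or library 7 (1.46, adjusted p = 0.00226). Counted as a basement membrane chain together with COL15A1, COL18A1 brings that class to 3 of 6 chains higher.

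The fibrillar chains varied widely within each group, and 1 of the 8 tested was called. COL27A1, a minor fibrillar collagen best known from cartilage (chromosome 1, 254770093 to 254923823), was at 21.9, 11.3, 15.2, 15.3 and 9.80 CPM in control, 46.2 and 20.1 CPM in DOCA and 10.4, 16.2 and 18.1 CPM with JK07. DOCA library 7 lay inside the control range, below control library 1. The log2 fold change was 1.18 (SE 0.38, edgeR adjusted p = 0.0491), which lost the threshold when any 1 of libraries 2, 3, 4, 5, 6, 9 or 10 was left out, with adjusted p between 0.0534 and 0.474, and fell to 0.46 without library 6.

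The abundant interstitial chains were not called. COL3A1 was at 335, 292, 534, 344 and 1102 CPM in control, 230 and 965 CPM in DOCA and 573, 703 and 291 CPM with JK07. COL1A1, the α1 chain of type I, was at 126, 126, 241, 165 and 679 CPM, then 179 and 851 CPM, then 260, 421 and 136 CPM. COL1A2, its α2 partner, was at 103, 96.5, 148, 95.9 and 381 CPM, then 106 and 282.5 CPM, then 167, 226 and 91.5 CPM. In each of the 3 genes control library 5 and DOCA library 7 were the highest 2 libraries, and the groups overlapped.

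The log2 fold changes in DOCA were 0.20 (SE 0.67, edgeR adjusted p = 0.857) for COL3A1, 0.95 (SE 0.79, adjusted p = 0.396) for COL1A1 and 0.24 (SE 0.64, adjusted p = 0.817) for COL1A2. Their signs rested on library 7: without it the same 3 values were -1.18, -0.59 and -0.64. COL5A1 and COL5A3 encode chains of type V, which nucleates fibrils, and were looked at after their values were seen. COL5A1 was at 60.6 to 216 CPM in control with a median of 99.2 CPM, and at 129 and 317 CPM in DOCA (log2 fold change 0.93, SE 0.50, edgeR adjusted p = 0.216). COL5A3 was at 9.10 to 38.3 CPM in control and at 47.9 and 42.2 CPM in DOCA, so the groups did not overlap, but it was not called (0.82, SE 0.47, edgeR adjusted p = 0.239).

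All 8 tested fibrillar chains had a positive fold change in DOCA in the TMM-scaled fit, but only 4 of 8 did without library 7 and 4 of 8 on the log2(TPM + 1) scale. Library 7 is also the library with the high mesothelial marker sum, 116 CPM. Its fibroblast marker sum was 1018 CPM, beside 444 to 776 CPM in control, 485 CPM in library 6 and 391 to 927 CPM with JK07. In DOCA the fold change was positive for 4 of the 13 fibroblast markers and negative for 9, beside 5709 and 11441 of the 17251 genes tested. POSTN (periostin), which is on that list, was at 2.14 CPM in library 7, below its control range of 8.37 to 19.02 CPM. Of further fibroblast genes, LUM (lumican) also lay below its control range in library 7, whereas PDGFRA and DCN (decorin) lay inside theirs. Of the 13 fibroblast markers none was called higher in DOCA and 3 were called lower, beside 5.73% and 19.7% of all genes tested. The part of these markers in the fibrillar values was not tested.

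**Figure D2:**
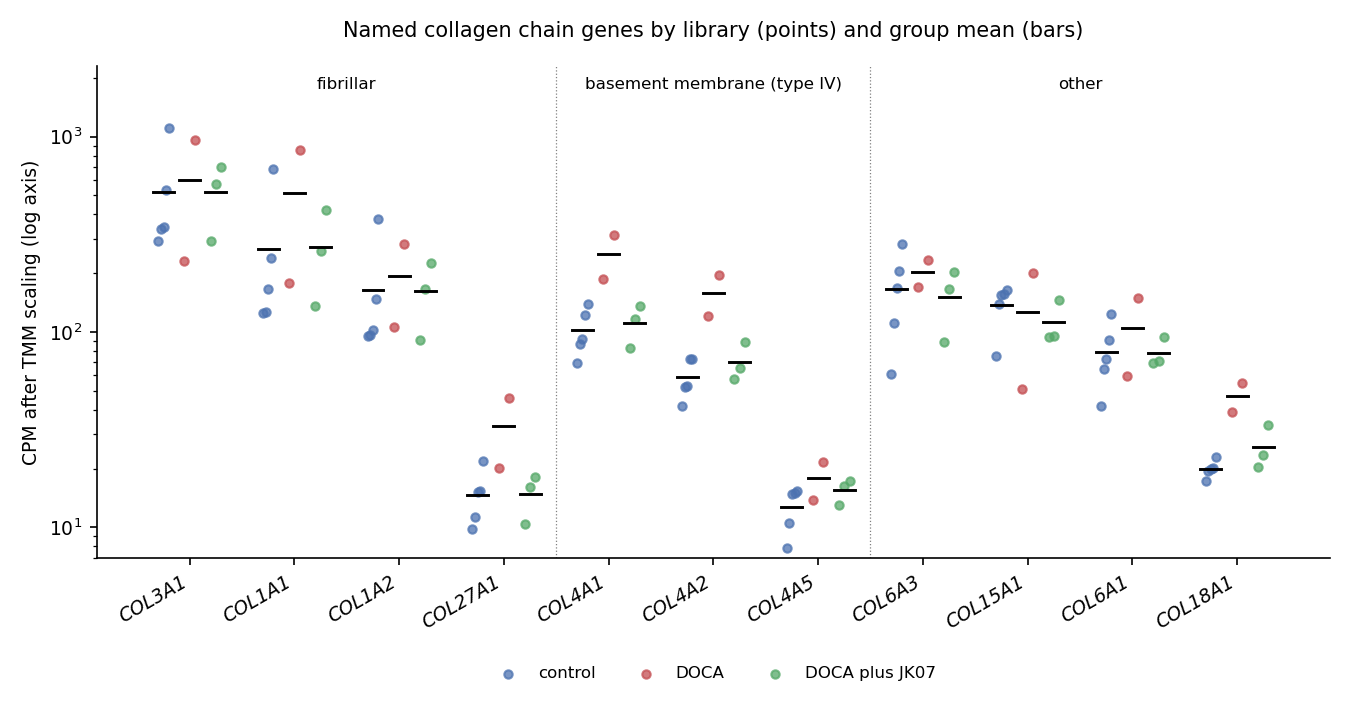
CPM after TMM scaling (log axis) of 11 collagen chain genes in every library (points) with the mean of each group (black bars), ordered by class. The DOCA points of COL4A1, COL4A2 and COL18A1 lie above all points of the other groups, while those of COL3A1, COL1A1 and COL1A2 lie on either side of the control mean.

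Beaded-filament and fibril-associated chains showed no call in either direction. COL6A3, the large α3 chain of type VI, was at 205, 61.0, 169, 112 and 282 CPM in control, 171 and 233 CPM in DOCA and 166, 202 and 88.5 CPM with JK07, and its groups overlapped. COL6A1, the α1 chain of type VI, was at 72.4, 41.9, 91.5, 65.0 and 124 CPM, then 59.8 and 149 CPM, then 71.3, 94.1 and 69.8 CPM. COL15A1 was at 155, 75.7, 156, 139 and 165 CPM, then 51.4 and 201 CPM, then 96.0, 146 and 94.3 CPM. For COL6A1 and COL15A1 library 6 lay below the control median and library 7 above the highest control, so the DOCA libraries bracketed most of the controls.

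The log2 fold changes of COL6A3, COL6A1 and COL15A1 in DOCA were 0.29, 0.41 and -0.13, with edgeR adjusted p of 0.723, 0.512 and 0.871. COL14A1 (type XIV), a fibril-associated collagen that spaces fibrils, had the lowest log2 fold change among chains with counts in every group, -0.80 (SE 0.53, edgeR adjusted p = 0.299). Of the 15 tested chains of the remaining classes, 7 had a positive and 8 a negative fold change.

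COL10A1, the short-chain collagen of hypertrophic cartilage, was the 1 chain called lower. It had 0.965, 0.946, 1.13, 1.39 and 1.14 CPM in control and 0.800 and 0.880 CPM in JK07 libraries 8 and 9, and was listed at 0 in both DOCA libraries and in JK07 library 10. The edgeR adjusted p was 0.0338 for DOCA against control. The gene lies at 81765859 to 81773818 on chromosome 1, inside NT5DC1 (81746022 to 81881113), which runs on the opposite strand. NT5DC1 was at 0.980 to 1.34 CPM in control and at 0 in the same 3 libraries. No source used here says whether strand entered the counting, and reads from the pair cannot be told apart. A mean coverage of 1 over COL10A1 corresponds to 41.3 counts, and the listed values of 62 to 113 counts lie near that step. The call was lost when any 1 of libraries 1 to 9 was left out, with adjusted p between 0.0512 and 0.103.

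Other estimates of the spread and another scale ended calls. With limma's voom and quality weights for each library, which gave libraries 6 and 7 the lowest weights (0.586 and 0.538), no chain was called, with adjusted p of 0.0540 for COL18A1, 0.0746 for COL4A2, 0.105 for COL4A1 and 0.174 for COL27A1, and 4 chains had an unadjusted p under 0.05. The log2 fold changes were then 1.24 for COL18A1, 1.39 for COL4A2, 1.24 for COL4A1 and 1.12 for COL27A1, and over all 17251 genes that fit called 67 higher and 94 lower, against 988 and 3403 with edgeR. On the log2(TPM + 1) scale COL18A1 and COL27A1 had smaller values, 0.59 and 0.44, and were not called (limma adjusted p = 0.121 and 0.255), and with log2(TPM + 0.1) COL4A1 was not called either (0.75, adjusted p = 0.0800). Over the 11 alternatives other than leaving out a library, the adjusted p ranged from 9.51e-07 to 0.167 for COL18A1, 1.12e-06 to 0.0746 for COL4A2, 9.31e-05 to 0.105 for COL4A1 and 0.0103 to 0.293 for COL27A1.

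**Figure D3:**
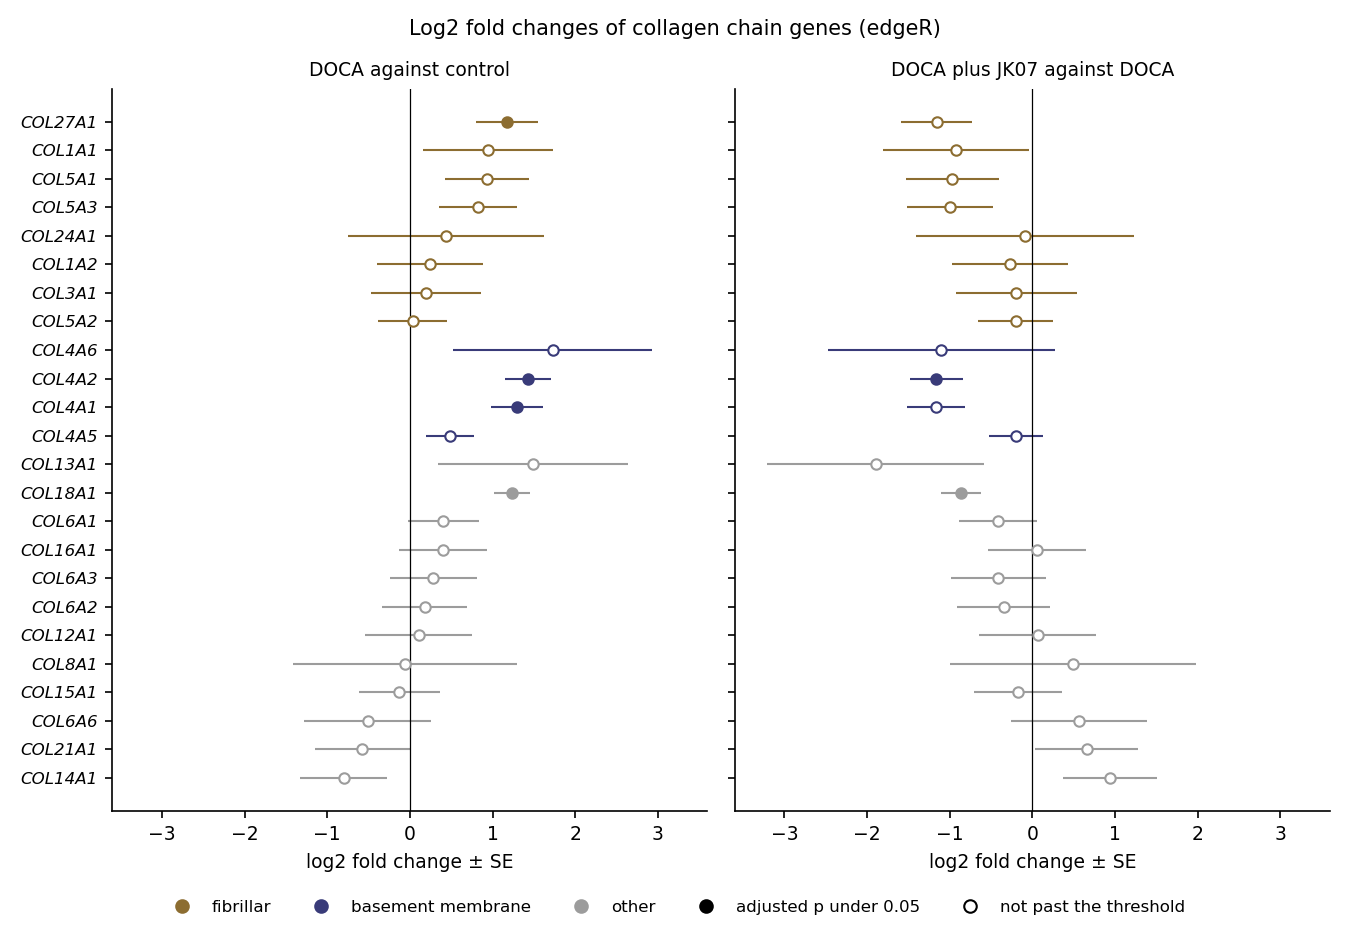
Log2 fold changes with their standard errors (edgeR) of the 24 tested collagen chains that no group held at 0, for DOCA against control (left) and DOCA plus JK07 against DOCA (right). Filled points passed an adjusted p of 0.05: COL27A1, COL4A2, COL4A1 and COL18A1 on the left, COL4A2 and COL18A1 on the right.

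The second comparison set the group given DOCA with JK07 against the group given DOCA alone. It shares the 2 DOCA libraries with the first, so a low or high value in those libraries enters both with opposite sign. COL4A2 and COL18A1 fell and no collagen chain rose. Over all genes tested, 2.25% were called lower and 14.7% higher. The medians were -1.13 for type IV, -0.59 for fibrillar and 0.06 for the other chains (-0.26 with groups at 0 set to the coverage minimum), beside 0.55 over all genes.

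COL4A2, from 158 ± 52.7 CPM in DOCA (SD, n = 2), was at 70.6 ± 16.5 CPM with JK07 (SD, n = 3), and fell by 1.16 on the log2 scale (SE 0.32, edgeR adjusted p = 0.0358). COL18A1 went from 47.0 ± 11.5 to 25.9 ± 6.89 CPM and fell by 0.86 (SE 0.25, edgeR adjusted p = 0.0418). COL4A1 had the same log2 fold change as its partner, -1.16 (SE 0.35), with an edgeR adjusted p of 0.0534. The 3 genes did not overlap between the groups.

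Both calls were close to the threshold. COL4A2 lost it without library 6 (-0.77, edgeR adjusted p = 0.174), 8 (adjusted p = 0.0873) or 10 (adjusted p = 0.0800), and COL18A1 without any 1 of libraries 3, 4, 5, 6, 8 or 9, with adjusted p between 0.0538 and 0.187. COL4A1 passed it without library 2 (adjusted p = 0.0363), and its log2 fold change was -1.48 without library 7. Of the 11 alternatives other than leaving out a library, 6 called COL4A1, 7 called COL4A2 and 7 called COL18A1. A fit on these 2 groups alone called neither COL4A2 nor COL18A1 (edgeR adjusted p = 0.104 and 0.171), and voom with quality weights called neither. On the log2(TPM + 1) scale the values were -0.39 for COL4A2 and -0.10 for COL18A1 (limma adjusted p = 0.241 and 0.802).

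Among the other chains, COL27A1 had a log2 fold change of -1.16 (SE 0.43, edgeR adjusted p = 0.0976), and passed without library 7 (-1.63, adjusted p = 0.0234). COL1A1, COL1A2 and COL3A1 had log2 fold changes of -0.92, -0.27 and -0.19 with edgeR adjusted p of 0.514, 0.854 and 0.908, and without library 7 these became 0.61, 0.61 and 1.18. Values of 6 chains lay wholly below those of DOCA: COL4A1, COL4A2, COL18A1, COL27A1, COL5A3 and COL13A1, the last a transmembrane collagen. That is 6 of 27 tested chains, beside 9.82% of all genes tested, and no chain lay wholly above, beside 30.3%. In the first comparison 4 of 27 lay wholly above control (COL4A1, COL4A2, COL18A1 and COL5A3), beside 10.2% of all genes, and COL10A1 alone lay wholly below, beside 27.6%.

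The third comparison set the group given DOCA with JK07 against control. No collagen chain was called by edgeR, none had an unadjusted p under 0.05, and DESeq2 called none, with 1 chain at an unadjusted p under 0.05. Over all genes edgeR called 0% in either direction. COL10A1 alone lay wholly below control and no chain wholly above, beside 2.45% and 3.37% of all genes tested. The log2 fold changes of COL4A1, COL4A2 and COL18A1 were 0.13, 0.27 and 0.37 (SE 0.29, 0.26 and 0.20). Type IV had a median of 0.28, fibrillar chains -0.01 and the others 0.05, around a median of 0 over all genes. A missed threshold does not show that the groups had the same collagen levels, and the biological coefficient of variation over all genes was 0.873.

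Ratios between chains were computed in TPM, first for chains that assemble into the same molecule. COL4A1 and COL4A2 lie head to head on chromosome 11, with 193 bases between their annotated starts. Their TPM ratio was 1.58 to 2.08 over the 10 libraries, with 1.74 and 1.69 in DOCA inside that range. COL1A1 and COL1A2, which lie on chromosomes 12 and 9, had a ratio of 1.24 to 1.88 in 9 libraries and 3.05 in library 7. The ratio of COL6A1 to COL6A2 was 1.16 to 1.48 in 9 libraries and 2.04 in library 6.

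Ratios between collagen types were computed in the same way. COL4A1 was at 0.162 to 0.417 times the TPM of COL3A1 in 9 libraries and at 1.98 times in library 6. COL3A1 was 1.23 and 1.08 times COL1A1 in the DOCA libraries and 1.54 to 2.53 times in the other 8, so this ratio was lower in both DOCA libraries than in any other. A second head-to-head pair, COL4A6 and COL4A5 on chromosome X, has 1432 bases between the starts, and COL4A5 was above 0 in 10 libraries and COL4A6 in 9. The third pair, COL4A4 and COL4A3 on chromosome 15, was at 0 throughout.

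**Figure D4:**
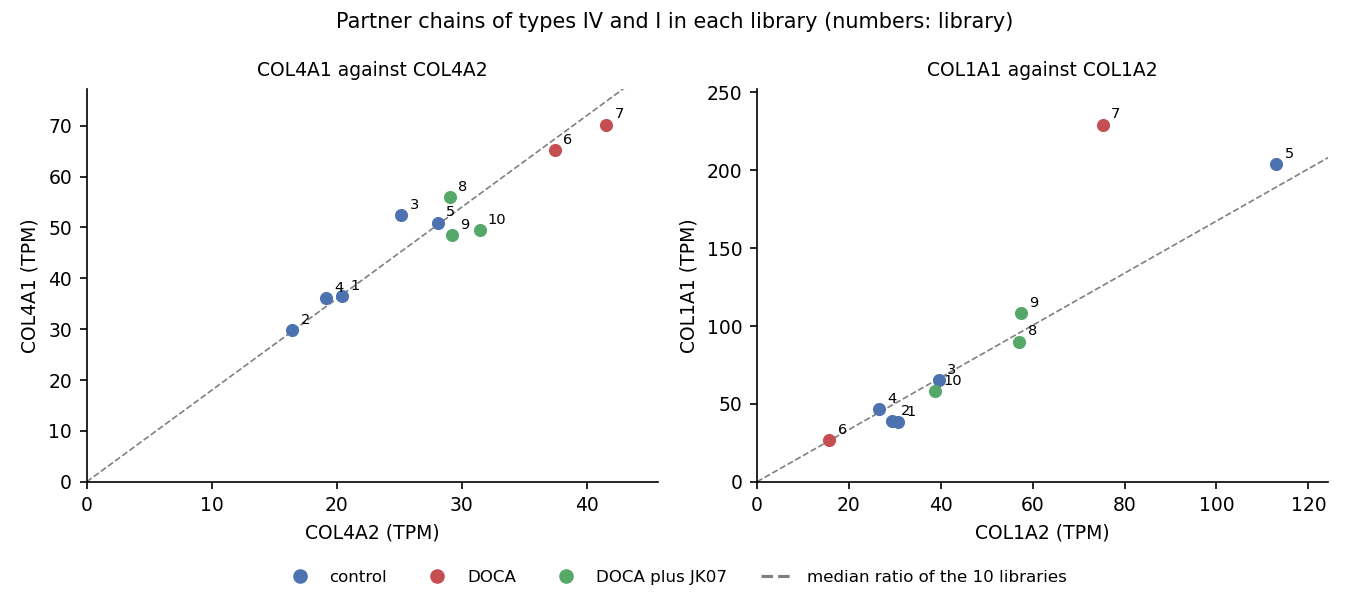
TPM of partner chains in each library (points, numbered by library), for COL4A1 against COL4A2 (left) and COL1A1 against COL1A2 (right), with the median ratio as a dashed line. Type IV partners stay near one line at ratios of 1.58 to 2.08, and library 7 departs from the type I line with a ratio of 3.05.

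Rare chains appeared in single libraries. COL22A1, which is known from tissue junctions such as that of muscle and tendon, was above 0 only in library 7, at 12.4 CPM (372 counts), and COL23A1, a transmembrane collagen, only in library 9, at 1.31 CPM. Neither passed the filter on low counts. DESeq2, run without that filter, called COL22A1 in both comparisons with the DOCA group, on the counts of library 7 alone. COL8A1, a short-chain network collagen of vessels, was at 0 in library 6 and at 2.65 to 15.05 CPM in the other 9.

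The 5 lists of collagen partner genes that follow are read beside the shares of all genes called: 5.73% higher and 19.7% lower in DOCA, and 14.7% higher and 2.25% lower with JK07 against DOCA. With voom and quality weights every call named below in these lists was lost, in both comparisons, except the rise of LAMA5 in DOCA. Proteins that partner type IV collagen in the basement membrane formed the first list, of which 15 of 16 could be tested. In DOCA 1 rose (LAMA5) and 1 fell (LAMA4). LAMA5, the laminin α5 chain of mature basement membranes, was at 17.9 to 29.7 CPM in control with a median of 24.9 CPM, at 112 and 71.5 CPM in DOCA and at 32.7, 42.9 and 35.1 CPM with JK07. It rose by a log2 fold change of 1.94 (SE 0.23, edgeR adjusted p = 0.000234) and fell by 1.32 with JK07 against DOCA (SE 0.26, edgeR adjusted p = 0.00696). The first change passed the threshold without either DOCA library and under each alternative tried, with adjusted p up to 0.0292. Its fall with JK07 was lost with voom and on both TPM scales, where the log2 fold change was as small as -0.47 and the adjusted p up to 0.202. LAMA4, the α4 chain of vessel and muscle laminins, fell by 0.65 (edgeR adjusted p = 0.0465) and rose by 0.78 with JK07 (adjusted p = 0.0418), but lost both calls when any library except 7 was left out (adjusted p of 0.0609 to 0.248 and of 0.0503 to 0.156).

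Enzymes that modify collagen in the endoplasmic reticulum moved in both directions. Of 19 tested, 3 rose in DOCA (PLOD3, P3H1 and P3H3) and 2 fell (PLOD2 and FKBP14). PLOD3, a lysyl hydroxylase with glycosyltransferase activity, was at 3.99 to 5.38 CPM in control and at 15.8 and 8.33 CPM in DOCA (log2 fold change 1.34, SE 0.26, edgeR adjusted p = 0.00473). PLOD2, the lysyl hydroxylase of the telopeptides, was at 20.3 to 26.4 CPM in control and at 7.60 and 11.9 CPM in DOCA, and fell by 1.23 (SE 0.24, edgeR adjusted p = 0.00462). The 2 lysyl hydroxylases thus moved in opposite directions, and both passed the threshold without library 6 and without library 7. Voom ended both calls (limma adjusted p = 0.0667 for PLOD3 and 0.0621 for PLOD2), and on the log2(TPM + 1) scale PLOD3 had a log2 fold change of 0.54 (adjusted p = 0.0570).

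The prolyl 3-hydroxylases P3H3 (1.61, SE 0.36, edgeR adjusted p = 0.00983) and P3H1 (1.27, SE 0.28, adjusted p = 0.00962, named after its values were seen) lost the call without library 6, with adjusted p of 0.0620 and 0.121, and P3H1 also on the log2(TPM + 1) scale (0.595, limma adjusted p = 0.109). FKBP14, a prolyl isomerase, was listed at 0 in both DOCA libraries and at 0.608 to 1.75 CPM in the other 8 (edgeR adjusted p = 0.000312). Those 8 libraries held 39 to 152 counts of it. Both DOCA libraries were the shallowest outside ribosomal scaffolds, so absence and a low level of FKBP14 cannot be told apart there. SERPINH1, the collagen chaperone HSP47, was at 17.0 to 32.3 CPM in control and at 28.9 and 55.7 CPM in DOCA. It was not called in the main fit (0.88, edgeR adjusted p = 0.0841). Of the 11 alternatives other than leaving out a library, 3 called it. Its log2 fold change was 1.27 without library 6 and 0.32 without library 7. P4HA1, a prolyl 4-hydroxylase subunit, had a log2 fold change of 0.40 (edgeR adjusted p = 0.484).

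With JK07 against DOCA, PLOD2 rose by 1.18 (SE 0.25, edgeR adjusted p = 0.00969). FKBP14 was called higher (edgeR adjusted p = 0.000378), with the same limit. It was at 1.56, 1.18 and 0.868 CPM in libraries 8 to 10, against the listed 0 in DOCA. PLOD3 fell by 1.01 (SE 0.29, edgeR adjusted p = 0.0459) and P3H3 fell by 1.44 (SE 0.41, adjusted p = 0.0392). The falls of PLOD3 and P3H3 were lost when library 6 was left out (adjusted p of 0.282 and 0.137), and also without library 3, 8 or 10 and, for PLOD3, library 5 or 9. Both were also lost on the TPM scales (-0.15 for PLOD3 and -0.57 for P3H3 with log2(TPM + 1)), and the rise of PLOD2 was lost in a fit on these 2 groups alone (edgeR adjusted p = 0.115).

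Of 14 genes for propeptide removal and cross-linking, 2 rose in DOCA and none was called with JK07 against DOCA, where edgeR gave no gene of the list an adjusted p under the threshold. BMP1, the procollagen C-proteinase, was at 14.5 to 20.5 CPM in control, 32.1 and 35.0 CPM in DOCA and 20.7, 27.6 and 26.1 CPM with JK07 (0.94, SE 0.19, edgeR adjusted p = 0.00540). The BMP1 call was lost with voom (limma adjusted p = 0.0874) and on the log2(TPM + 1) scale, where the value was 0.37 (adjusted p = 0.324). PXDN, the peroxidase that forms sulfilimine cross-links in type IV collagen, was at 10.7 to 23.8 CPM in control, 56.9 and 31.9 CPM in DOCA and 20.5, 26.5 and 23.3 CPM with JK07 (1.29, SE 0.32, edgeR adjusted p = 0.0179). PXDN lost the call on the log2(TPM + 1) scale (0.62, limma adjusted p = 0.0876) and without library 6 (0.81, adjusted p = 0.163), and passed the threshold with JK07 against DOCA without library 7 (-1.28, adjusted p = 0.0492). LOX, the lysyl oxidase of fibrillar collagen, had a log2 fold change of 0.06 (edgeR adjusted p = 0.942).

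Collagen receptors were split as well: of 9 tested, DDR1 and ADGRG1 rose in DOCA and ITGA1 fell. DDR1, a receptor tyrosine kinase for fibrillar and type IV collagen, was at 4.81 to 6.66 CPM in control, 9.98 and 15.0 CPM in DOCA and 7.39, 7.42 and 6.87 CPM with JK07. It rose by 1.07 in DOCA (SE 0.19, edgeR adjusted p = 0.00296) and fell by 0.79 with JK07 (SE 0.21, adjusted p = 0.0348). The fall was lost without library 5, 7, 8, 9 or 10, with adjusted p of 0.0509 to 0.160. On the log2(TPM + 1) scale the rise of DDR1 was 0.39 (limma adjusted p = 0.280) and the difference with JK07 was -0.038 (adjusted p = 0.926), and voom ended both calls. DDR2, the fibroblast receptor for fibrillar collagen, was at 6.28 to 15.4 CPM in control and at 3.35 and 10.8 CPM in DOCA (-0.81, edgeR adjusted p = 0.265), and passed without library 7 (-1.89, adjusted p = 0.0302).

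ADGRG1, an adhesion receptor for type III collagen, was at 26.1 CPM in library 6 and at 5.49 CPM in library 7, inside the control range of 3.35 to 7.30 CPM (1.505, edgeR adjusted p = 0.0491), and its log2 fold change was -0.02 without library 6. ITGA1, the integrin α1 chain, fell by 1.06 (edgeR adjusted p = 0.0496). Both calls were lost when any library except 7 was left out, with adjusted p of 0.0554 to 0.9996 for ADGRG1 and of 0.0569 to 0.244 for ITGA1.

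Of 13 proteins that bind collagen fibrils, none rose in DOCA and 2 fell, beside 19.7% of all genes called lower. OMD, osteomodulin, was at 3.49 to 6.61 CPM in the 8 other libraries and was listed at 0 in both DOCA libraries (edgeR adjusted p = 1.12e-05 against control and 1.5e-05 for JK07 against DOCA). POSTN, periostin, which is also on the fibroblast marker list, was at 8.37 to 19.02 CPM in control, 2.94 and 2.14 CPM in DOCA and 27.4, 22.8 and 4.44 CPM with JK07. It fell by 2.22 (SE 0.67, edgeR adjusted p = 0.0409) and rose by 2.84 with JK07 (SE 0.73, adjusted p = 0.0254). The fall of POSTN was lost when any library except 8 or 10 was left out (adjusted p of 0.0546 to 0.151), and the rise without library 6, 7, 8 or 9 (adjusted p of 0.0620 to 0.102). In the third comparison no gene of these 5 lists was called by edgeR.

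Marker sums of the other cell types lay beside these values as follows. Their calls in DOCA are read beside the 19.7% of all genes called lower. The endothelial sum was 130 to 276 CPM in control, 135 and 216 CPM in DOCA and 124 to 192 CPM with JK07, and 1 of its 10 markers was called lower in DOCA. Smooth muscle and pericyte markers summed to 108 to 156 CPM in control, 88.5 and 107 CPM in DOCA and 119 to 160 CPM with JK07, with 2 of 10 called lower. Macrophage markers summed to 40.96 to 146 CPM in control, 60.4 and 73.0 CPM in DOCA and 28.03 to 74.1 CPM with JK07, with 1 of 9 called lower. These groups overlapped for endothelial and macrophage markers, whereas both DOCA sums of the mural list lay below every control.

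The adipocyte sum was 16.6 and 11.98 CPM in DOCA libraries 6 and 7 and 6.71 to 10.02 CPM in the other 8, with no overlap, whereas in TPM it was 5.53 and 7.42 against 4.35 to 6.68 and overlapped. Of its 3 tested markers 1 was called, PNPLA2, a lipase that cardiomyocytes also express, which was called higher in DOCA and lower with JK07, while the defining markers ADIPOQ and LEP were at 0 in all 10 libraries. All 3 mesothelial markers had a positive fold change in DOCA (median 1.91) and a negative one with JK07 against DOCA (median -1.54), and none was called. The 2 DOCA libraries differed here. The sum was 116 CPM in library 7 and 5.61 CPM in library 6, which is below the control range of 6.30 to 25.3 CPM. The Schwann cell sum was at most 3.74 CPM in any library, and none of its 3 tested markers or the 8 cardiomyocyte markers was called. With JK07 against DOCA, 3 of 13 fibroblast, 1 of 10 endothelial and 2 of 10 mural markers were called higher, beside 14.7% of all genes tested. The part of any of these lists in the type IV values was not tested.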

How the data were processed

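In all, 10 libraries of nuclear RNA were grouped by their labels (5 control, 2 DOCA, 3 DOCA plus JK07). The submitters' processing notes name edgeR, StringTie and SAMtools and the build Sscrofa11.1, while the aligner, tool versions and strand setting are not given in the sources used here. The authors deposited 1 table of estimated counts, in whole numbers and without gene names, and a table per library with coverage, FPKM and TPM for each gene. The lines of the count table were matched to sorted gene identifiers: whether a line was 0 matched whether the deposited coverage was 0 in 99.998% of values, against 62.6% after a shift by 1 line. The deposited coverage values served this check, and the deposited FPKM values were not used further. No column was left without a sample (0).

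Estimated counts were fitted with edgeR 4.0.16 (TMM, filterByExpr, quasi-likelihood test, all 10 libraries in 1 model, Benjamini-Hochberg over 17251 genes) in R 4.3.3. A run on simulated counts checked the code only. It had less spread than these data and larger changes than those of the chains called higher, so it does not measure how reliable the calls are. CPM were computed after TMM scaling. Alternatives used limma 3.58.1 (voom with quality weights; log2 of TPM plus 1 or 0.1, genes with a TPM of at least 1 in at least 2 libraries), DESeq2 1.42.0, other scalings and filters, thinning, the 2 groups alone and leaving out each library. Named were all called chains, the 3 most abundant by CPM per class, chains at 0 in 1 whole group and above 0 in all of another, 4 fixed genes (SERPINH1, P4HA1, LOX and DDR2) and up to 3 called genes per list and contrast. The members and lists were chosen with earlier results of these data known. No sequence of the chains was used here.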

Additional observations from a re-analysis of the deposited data

Results flagged for a closer look

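In the control group of 5, 6 of 38 values checked had 1 library far from the other 4. The rule flags about 1 in 20 by chance only for independent, normally distributed values. These values are neither, since the fibrillar sum holds COL1A1 and COL1A2 and CPM are skewed, so no excess over chance is read from the count. Control library 5 was such a library for 5 of the 6. It had 679 CPM of COL1A1, against at most 241 CPM in the other controls, 381 CPM of COL1A2, against at most 148 CPM, and 15.05 CPM of COL8A1, against at most 4.22 CPM. Its fibrillar sum was 2501 CPM, against at most 1153 CPM, and its TPM ratio of COL4A1 to COL3A1 was 0.162, against at least 0.348. In control library 3, COL17A1, a transmembrane collagen of epithelial attachment, was at 0.87 CPM and was listed at 0 in the other 4 controls. Beside control library 5, DOCA library 7 had 851 CPM of COL1A1 and 282.5 CPM of COL1A2.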

How the results depend on the processing

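No paired analysis was possible because the labels number the libraries 1 to 10 and no number is shared between groups. The precision is limited by the 2 DOCA libraries, which are also the shallowest outside ribosomal scaffolds. For DOCA against control, the 4 collagen chains called higher became 0 with voom and quality weights, 2 with log2(TPM + 1) and 1 with log2(TPM + 0.1). COL27A1 also lost its call with no filter on low counts and with the 2 groups alone. The 1 called lower, COL10A1, was lost with voom and was too low in TPM to be tested on either TPM scale. Over all genes, calls went from 988 higher and 3403 lower to 67 and 94 with voom, 256 and 4162 with log2(TPM + 1) and 201 and 4576 with log2(TPM + 0.1). For DOCA plus JK07 against DOCA, the 2 called lower became 0 with voom, with both TPM scales and with the 2 groups alone. They became 5 with DESeq2, among them COL22A1, which was above 0 in library 7 alone. For that comparison, all genes called lower went from 388 to 4, 70, 41, 112 and 1134 in that order. There the 0 called higher became 1 with both TPM scales (COL14A1), with DESeq2 (COL10A1) and with at least 10 counts in every library of a group, while all genes called higher went from 2542 to 1 with voom, 4689 and 4879 with the TPM scales and 3915 with DESeq2. The cause was not tested. Leaving out 1 library at a time gave 2 to 5 chains higher and 0 to 2 lower for DOCA against control, 0 to 2 higher and 0 to 4 lower for DOCA plus JK07 against DOCA, and 0 throughout for DOCA plus JK07 against control. The median log2 fold change of all genes in DOCA moved from -0.63 to -0.39 with upper quartile scaling, -0.51 with log2(TPM + 1) and -0.92 with log2(TPM + 0.1).

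The log2 ratio of the mean type IV sums in CPM was 1.30 for DOCA against control and -1.11 for DOCA plus JK07 against DOCA, and 0.75 and -0.37 in TPM. Leaving out libraries for these sums was chosen after seeing the data. It gave 0.96 to 1.58 and -1.38 to -0.77 for type IV, -0.58 to 1.13 and -1.14 to 0.57 for fibrillar chains, and -0.49 to 0.59 and -0.65 to 0.42 for the others. Against control, DOCA plus JK07 gave 0.03 to 0.33, -0.33 to 0.47 and -0.29 to 0.15 in the same order.

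Of the genes that changed sign under an alternative, ADGRG1 alone had been called in that comparison. For DOCA against control, log2(TPM + 1) and log2(TPM + 0.1) gave -0.48 and -0.49 for COL3A1, -0.22 and -0.23 for COL1A2, -0.0033 and -0.035 for COL4A5, -0.090 and -0.091 for COL6A3, -0.17 and -0.19 for COL6A1, -0.22 and -0.36 for LOX and -0.23 and -0.27 for P4HA1. Upper quartile scaling gave 0.15 for COL15A1. With JK07 against DOCA alone both TPM scales gave 0.78 and 0.80 for COL3A1, 0.067 and 0.077 for COL1A1, 0.52 and 0.54 for COL1A2, 0.41 and 0.55 for COL4A5, 0.26 and 0.27 for COL6A3, 0.79 and 0.85 for COL15A1, 0.43 and 0.46 for COL6A1, 0.27 and 0.30 for BMP1, 0.22 and 0.35 for LOX and 0.14 and 0.14 for P3H1. There voom gave 0.20 for COL3A1 and 0.21 for COL15A1, and upper quartile scaling gave -0.12 for P4HA1.

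Leaving out 1 library at a time moved log2 fold changes across 0 in DOCA against control for COL3A1 (-1.18 to 0.89), COL1A1 (-0.59 to 1.67), COL1A2 (-0.64 to 0.81), COL15A1 (-1.43 to 0.54), COL6A1 (-0.41 to 0.92), ADGRG1 (-0.022 to 2.22) and P4HA1 (-0.43 to 0.92). In DOCA plus JK07 against DOCA it did so for COL3A1 (-0.89 to 1.18), COL1A1 (-1.64 to 0.61), COL1A2 (-0.81 to 0.61), COL4A5 (-0.48 to 0.17), COL15A1 (-0.84 to 1.13), COL6A1 (-0.93 to 0.40), ADGRG1 (-2.09 to 0.16), LOX (-0.56 to 0.016) and P4HA1 (-0.40 to 0.94). In DOCA plus JK07 against control, where single genes were followed for COL4A1, COL4A2 and COL18A1 only, it did so for COL4A1 (-0.033 to 0.30). There 4 of 8 fibrillar chains were positive with all libraries, 1 of 8 without library 9 or without library 2 7 of 8 without library 10 and 8 of 8 on both TPM scales.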
